A study of Mus musculus with 2 samples.

Results

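The genes described here encode the respiratory chain of mitochondria and were chosen by their names on the array. They comprise the NADH dehydrogenase genes (names starting *Nduf*), the succinate dehydrogenase genes *Sdha* to *Sdhd*, the genes of the cytochrome bc1 complex (*Uqcr* names and *Cyc1*), of cytochrome c oxidase (*Cox4* to *Cox8* names) and of ATP synthase (*Atp5* names), cytochrome c (*Cycs*), and the protein genes of the mitochondrial genome. This choice gave 105 gene names with 151 probes, of 55681 probes on the array. Of the 105 genes, 92 (138 probes) are nuclear and 13 (13 probes) are mitochondrial. The cells were 4T1, a line from a mammary carcinoma of a BALB/C mouse, grown in culture. They were separated by FACS with the ALDEFLUOR assay, which gives cells a substrate of aldehyde dehydrogenase (ALDH) and reads its activity by fluorescence. The ALDH-positive cells (labelled "cancer stem cell") and the ALDH-negative cells (labelled "anti cancer stem cell") came from the same cultured line and had received no treatment. The RNA of each population was measured on 1 single-colour Agilent array, so 2 arrays make up the comparison, both on the same slide. ALDH activity serves in this field as a marker of stem-like tumor cells, and the sort divides 1 established line by enzyme activity alone.

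The respiratory chain is a set of protein complexes in the inner mitochondrial membrane. Complexes I and II pass electrons from NADH and succinate to coenzyme Q, complex III passes them on to cytochrome c, and complex IV passes them to oxygen. Complexes I, III and IV pump protons, and complex V, the ATP synthase, uses their return flow to make ATP. Most subunits are encoded in the nucleus, translated in the cytosol and imported. The mitochondrial genome encodes a small core of subunits of complexes I, III, IV and V, and none of complex II. Its protein messages are cut from long transcripts of both strands. All of them but *ND6* come from transcription of the heavy strand, while *ND6* comes from transcription of the light strand.

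All signals below are quantile-normalized intensities, and every log2 ratio is ALDH-positive over ALDH-negative. A probe is called measured where the scanner software marked it well above background on at least 1 array, and a gene has the value of its brightest measured probe. The error given with a log2 ratio combines the software's own errors of both signals. It was about 0.20 for all bright probes, far above the spread of spots printed repeatedly on the same array (median SD 0.059 and 0.047, log2), and it leaves out any variation from culture to culture. Each population had a single array, so there was no replicate check, no test and no p-value, and precision is limited by the number of arrays. Signals of different probes are not compared with each other. The word higher or lower is kept for genes past the selection of the study's methods, which asks for a Z-score of at least 2 with a ratio of at least 1.5, or a Z-score of at most -2 with a ratio of at most 0.75.

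Well above background were 26985 probes (48.5%) on the ALDH-negative array and 27503 (49.4%) on the ALDH-positive array, and 28585 were measured. The ALDH-positive array was brighter, with a median log2 ratio of 0.49 over measured probes before normalization and of 0.015 after it. The labelled cell type could be checked by markers, since all 8 mammary epithelial genes listed (*Krt8*, *Krt18*, *Krt19*, *Epcam*, *Cdh1*, *Cldn3*, *Cldn7* and *Esrp1*) were measured, 3 of them higher. Their median log2 ratio was 0.47, and their summed signal went from 366729 on the ALDH-negative to 418307 on the ALDH-positive array. Of 9 leukocyte markers 5 were measured (median log2 ratio -0.34, summed signal 10774 and 7136), and *Ptprc*, *Lyz2* and *Adgre1* were among those not well above background on either array. Of 5 endothelial markers 2 were measured (summed signal 7319 and 5426), and of 8 fibroblast markers 4 (summed signal 277 and 333). The part of these cell types in the results below was not tested.

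The array carried 1 probe of 60 bases for each of the 13 mitochondrial genes. Their sequences are shown because they identify the messages that lay apart from the nuclear genes, and because base composition separates the light-strand message from the others. They are given as the array files hold them, 5′ to 3′, with every guanine in capitals. The order is that of the genes along the mitochondrial genome, with positions on build NCBI37 (mm9) from the array files.
ND1, chrM:2898-2957 (+): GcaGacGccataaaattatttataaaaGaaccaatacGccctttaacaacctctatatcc
ND2, chrM:4670-4729 (+): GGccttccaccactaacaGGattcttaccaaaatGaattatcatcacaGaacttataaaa
COX1, chrM:6650-6709 (+): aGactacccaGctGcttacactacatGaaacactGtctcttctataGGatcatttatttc
COX2, chrM:7619-7678 (+): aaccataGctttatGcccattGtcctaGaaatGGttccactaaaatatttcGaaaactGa
ATP8, chrM:7870-7929 (+): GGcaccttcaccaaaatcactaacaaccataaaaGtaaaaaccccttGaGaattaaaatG
ATP6, chrM:7965-8024 (+): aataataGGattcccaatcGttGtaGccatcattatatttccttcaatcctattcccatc
COX3, chrM:9072-9131 (+): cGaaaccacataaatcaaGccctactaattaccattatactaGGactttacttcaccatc
ND3, chr1:24619613-24619672 (-): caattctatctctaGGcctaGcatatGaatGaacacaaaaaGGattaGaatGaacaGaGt
ND4L, chrM:10114-10173 (+): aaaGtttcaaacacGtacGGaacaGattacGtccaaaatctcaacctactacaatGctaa
ND4, chrM:11370-11429 (+): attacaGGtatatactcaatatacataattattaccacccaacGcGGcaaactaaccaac
ND5, chrM:13402-13461 (+): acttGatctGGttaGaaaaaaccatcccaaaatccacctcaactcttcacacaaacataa
ND6, chrM:13552-13611 (-): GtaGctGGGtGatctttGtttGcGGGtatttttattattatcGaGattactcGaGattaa
CYTB, chrM:15099-15158 (+): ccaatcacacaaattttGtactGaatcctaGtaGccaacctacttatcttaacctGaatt

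The probes of the 12 heavy-strand genes held between 4 and 11 guanines, and that of *ND6*, on the minus strand, held 15. The array files place the *ND3* probe on chromosome 1 and the other probes on the mitochondrial genome. Whether the *ND3* probe detects RNA from chromosome 1, from the mitochondrial genome or from both was not tested, since no genome sequence was used here.

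The messages of the mitochondrial genome gave dimmer signals after normalization in the ALDH-positive population for 12 of 13 genes. Their median log2 ratio was -0.20, from -0.33 for *ATP8* to 0.064 for *ND6*. The 12 heavy-strand genes share long transcripts, so their values are not independent readings. All 12 lay below 0, between -0.33 and -0.10, with a median of -0.20 and an SD over genes of 0.070. None passed the selection. Over all 13989 measured genes with a symbol in the reference gene table or chosen by name, 60.6% had a log2 ratio above 0 and the median was 0.045. Among the 12 genes 5 lay below 0 by more than their error (*ND1*, *ND3*, *COX3*, *ATP8* and *ATP6*), where 12.1% of measured genes did.

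The complex V genes *ATP8* and *ATP6*, which encode parts of the membrane sector of ATP synthase and overlap on the genome, had the lowest ratios of the 13 after quantile normalization. With a 75th percentile shift in its place, *COX2* (-0.32) and *COX3* (-0.29) lay below *ATP6* (-0.28) and *ATP8* (-0.25). *ATP8* read 41932 for ALDH-negative and 33391 for ALDH-positive cells (ratio 0.796, log2 ratio -0.33, error 0.20), and pairs of signals are given in this order below. *ATP6* read 89162 and 73163 (ratio 0.821, log2 ratio -0.29, error 0.20). Their Z-scores were -1.99 and -2.002, so both lay at the limit of the Z-score and short of the ratio limit.

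The complex IV genes *COX1*, *COX2* and *COX3* encode the catalytic core of cytochrome c oxidase. *COX3* read 123221 and 102422 (ratio 0.831, log2 ratio -0.27, error 0.20), with a Z-score of -2.06, past the Z-score limit but not the ratio limit. *COX2* read 234611 and 204314 (log2 ratio -0.20, error 0.20). *COX1* read 213265 and 196028.5 (log2 ratio -0.12, error 0.20). All 3 were dimmer in ALDH-positive cells, and *COX3* alone lay beyond its error.

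The complex I genes *ND1* to *ND6* and *ND4L* encode the membrane arm of NADH dehydrogenase. *ND1* had signals of 21163 and 17445 (log2 ratio -0.28), and *ND3* had 93758 and 79292 (log2 ratio -0.24), both beyond their error of 0.20. *ND5* had signals of 6994 and 6075 (log2 ratio -0.20), *ND2* 67365 and 59411 (log2 ratio -0.18) and *ND4L* 22004 and 19438 (log2 ratio -0.18), all within the error of 0.20. *ND4* read 48215 and 44848 (log2 ratio -0.10), the nearest to 0 among the heavy-strand genes. *ND6* read 630.1 and 659 (log2 ratio 0.064, error 0.20). It was the only mitochondrial gene brighter in ALDH-positive cells, by less than its error. *CYTB*, the catalytic cytochrome b of complex III, read 127637 and 115765 (log2 ratio -0.14, error 0.20).

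**Figure D1:**
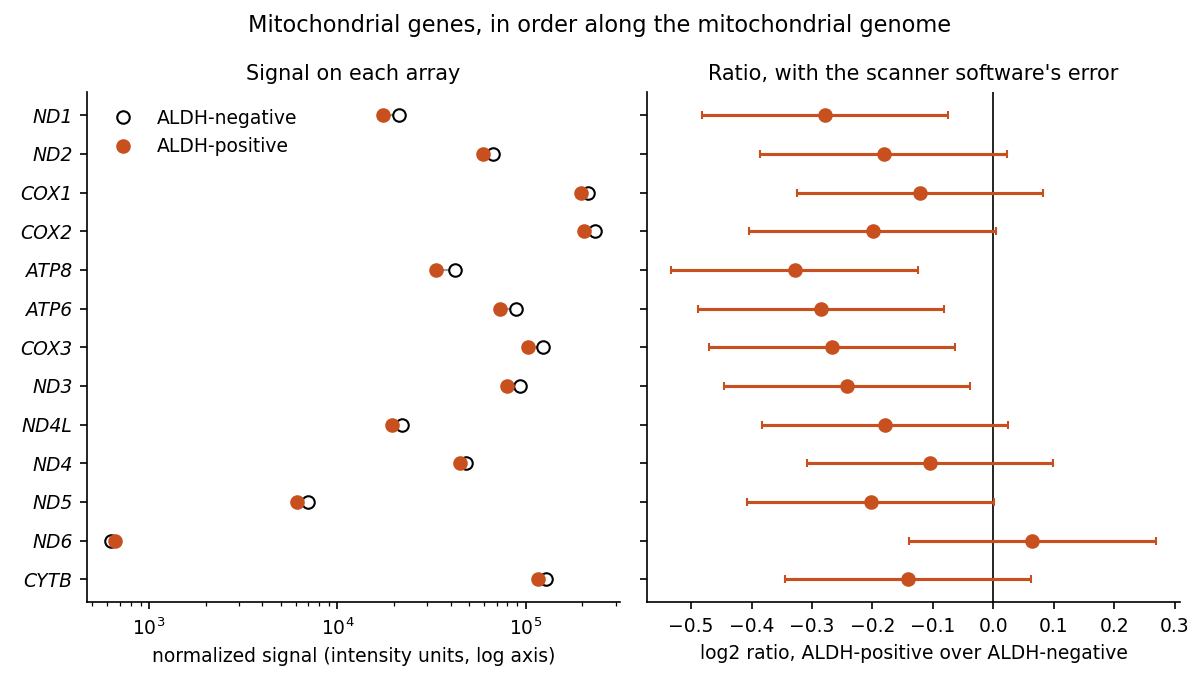
Left, the normalized signal (log axis) of the 13 mitochondrial genes in ALDH-negative (open points) and ALDH-positive cells (filled points), 1 array each. Right, the log2 ratio with the scanner software's error as bars. Of the 13 genes, 12 lie below 0, from -0.33 (*ATP8*) to -0.10 (*ND4*), and *ND6* lies at 0.064.

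The direction of the mitochondrial messages is relative to the other genes on the arrays. Before normalization all 13 had a log2 ratio above 0, from 0.14 to 0.58 with a median of 0.25, while the measured probes as a whole had a median of 0.49. The E1A control probes of the array are meant for RNAs added at labelling, and the sources used here do not say whether such RNAs were added. The 8 of them well above background had a median log2 ratio of 0.094 before normalization, from -0.69 to 0.18. With that median in place of normalization, the mitochondrial median was 0.16 and the median of all genes 0.46. As shares of the summed processed signal, the mitochondrial probes went from 0.598% for ALDH-negative to 0.514% for ALDH-positive cells, and the nuclear respiratory chain probes from 1.68% to 1.84%. Whether a cell of either population held more or less mitochondrial RNA cannot be told apart from a difference in the amount of all other RNA, nor can fewer cells with such RNA from less of it per cell.

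The nuclear subunit genes lay close to the median of all measured genes. Of 82 nuclear subunit genes on the array 79 were measured, and their median log2 ratio was 0.050, next to the 0.045 of all measured genes. Of the 79, 62 (78.5%) lay above 0, where 60.6% of all measured genes did, and 17 lay below. They ranged from -0.50 (*Cox6a2*) to 0.21 (*Cox5b*) with an SD over genes of 0.11, and 5 lay beyond their error, 3 above and 2 below, where 20.9% of measured genes lay above and 12.1% below. None was higher and none was lower, where the selection called 1.32% of measured genes higher and 2.03% lower. These shares cover genes of every signal strength, and the ratios of dim probes spread more widely. Percentiles 10 and 90 of measured probes were -0.75 and 0.74 at mean log2 signals of 4 to 5, and -0.16 and 0.16 at 15 to 16. A comparison with probes of like signal is given below. All 143 measured probes of the respiratory chain were well above background on both arrays, and none of their spots was saturated.

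The nuclear median exceeded the mitochondrial median by 0.25 on the log2 scale. Only 2 nuclear subunit genes, *Cox6a2* and *Cox4i2*, lay at or below the mitochondrial median, and only *ND6* lay above the nuclear median. Under the log2 ratio of *ND4* fell all other heavy-strand genes. At or below it were 5 of 79 nuclear subunit genes (*Cox6a2*, *Cox4i2*, *Sdhd*, *Atp5e* and *Cox4i1*) and 22.4% of all measured genes. The difference was not tested. It lay between 0.24 and 0.31 under the 10 other ways of computing it, the unnormalized signals included.

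**Figure D2:**
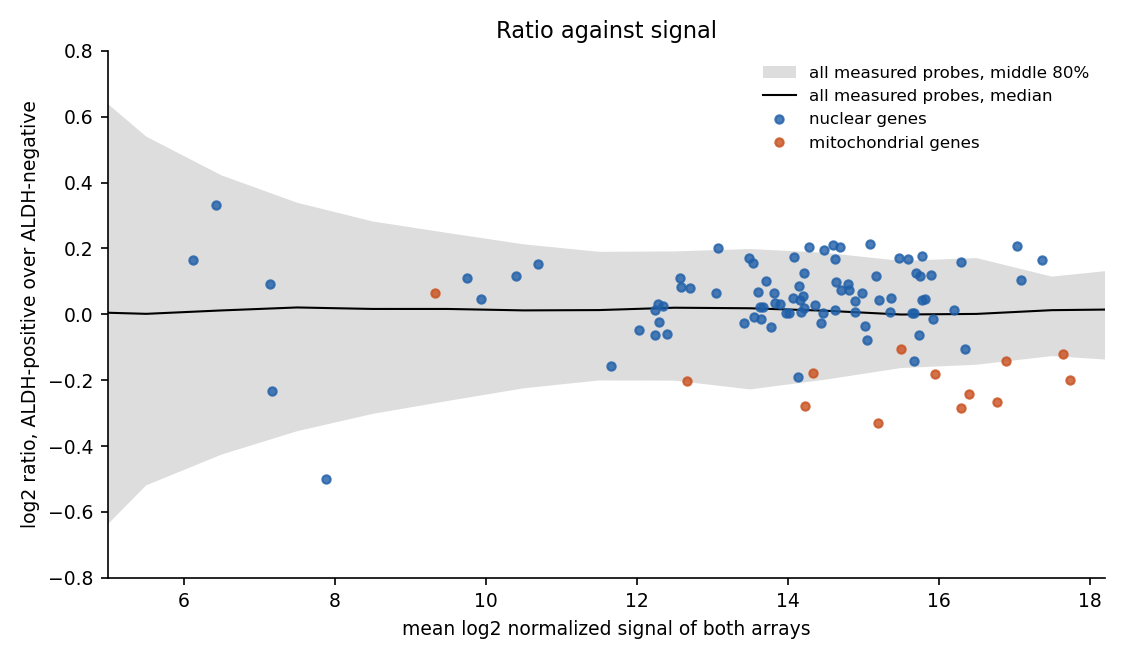
Log2 ratio against the mean log2 signal of both arrays for the measured nuclear (blue) and mitochondrial (orange) respiratory chain genes, with the median (line) and the range from percentile 10 to percentile 90 (grey) of all measured probes in steps of 1 log2 unit. Of 13 mitochondrial genes 8 lie below percentile 10 of the probes of like signal, as does 1 of 79 nuclear subunit genes.

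Signal strength moved with the grouping, since most mitochondrial probes were among the bright ones. Set against measured probes of like mean signal, in steps of 1 log2 unit with at least 285 probes each, 8 of 13 mitochondrial genes (*ND1*, *ND2*, *ND3*, *ND5*, *COX2*, *COX3*, *ATP6* and *ATP8*) lay below percentile 10 and none above percentile 90. Of the 79 nuclear subunit genes 1 (*Cox6a2*) lay below percentile 10 and 11 lay above percentile 90, among them *Ndufs6*, *Ndufa13*, *Sdha* and *Cox6a1*. By definition about 10% of the probes of a step lie beyond each of these limits. The mean log2 ratio of the neighbouring probes in signal was within 0.021 of 0 for the probe that stands for each measured respiratory chain gene. The difference was as large away from the edge of the array. The probes of *ND1*, *COX1*, *ND6* and *CYTB* were printed near the far edge (the final eighth of rows or of columns), and the 9 mitochondrial genes outside it all lay below 0 with a median of -0.20, against 0.050 for the 59 nuclear subunit genes outside it.

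Complex I, the largest complex of the chain, lay on both sides of 0 by genome. Its 36 nuclear genes had a median log2 ratio of 0.071, with 30 above 0, and the 7 mitochondrial genes a median of -0.18, with 6 below 0. All 36 nuclear genes were measured, and their range was narrow, from -0.062 to 0.21. The highest were *Ndufa3* and *Ndufb11*, accessory subunits, and *Ndufv3*, a small subunit of the NADH-binding module. *Ndufa3* read 23041 and 26672 (log2 ratio 0.21, error 0.20), the only nuclear complex I gene beyond its error. *Ndufb11* had signals of 24684.5 and 28429 (log2 ratio 0.20) and *Ndufv3* 18579 and 21387 (log2 ratio 0.20). The lowest were *Ndufs8*, which carries iron-sulfur clusters, with 4967 and 4756 (log2 ratio -0.062), *Ndufa10* with 5533 and 5308 (log2 ratio -0.060), and *Ndufb2* with 14305 and 13920.0 (log2 ratio -0.039). The *Ndufs8* probe and that *Ndufb2* probe lay near the edge of the array. The other *Ndufb2* probe, with 6062 and 6521, gave a log2 ratio of 0.11. The flavin subunit *Ndufv1*, where NADH is oxidized, read 21387 and 24504 (log2 ratio 0.20), and the large iron-sulfur subunit *Ndufs1* 11250 and 12523 with a log2 ratio of 0.15.

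Complex II has no mitochondrial gene, and its 4 nuclear genes fell on both sides of 0 with a median log2 ratio of -0.027. *Sdha*, the flavoprotein that oxidizes succinate, read 8053 and 9251 (log2 ratio 0.20, error 0.20). *Sdhb*, the iron-sulfur subunit, read 34985 and 33124 (log2 ratio -0.079). Of the membrane anchors, *Sdhc* read 5150.5 and 5243 (log2 ratio 0.026), and *Sdhd* read 19299 and 16914 (log2 ratio -0.19). That *Sdhc* probe lay near the edge of the array, and its other probe, with 5074 and 4820, gave a log2 ratio of -0.074. Without the edge of the array the complex II median was -0.076. No gene lay beyond its error of 0.20, and *Sdha* and *Sdhd* came nearest to it from opposite sides.

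Complex III had a median of 0.033 over its 9 nuclear genes, of which 8 lay above 0 and none beyond its error, beside -0.14 for *CYTB*. *Uqcr10*, a small subunit, had signals of 35390.3 and 38371.5 (log2 ratio 0.12), the core subunit *Uqcrc1* 12990.3 and 13924 (log2 ratio 0.10) and the hinge protein gene *Uqcrh* 41588 and 43058 (log2 ratio 0.050). That *Uqcr10* probe lay near the edge of the array, and the other *Uqcr10* probes gave log2 ratios of 0.13 and -0.12. The Rieske iron-sulfur protein gene *Uqcrfs1* was the only nuclear gene below 0 by its brightest probe, with 12901 and 12775 (log2 ratio -0.014). That probe also lay near the edge of the array. *Uqcrb* and *Uqcr11* had log2 ratios of 0.0030 and 0.0069. *Uqcrc2*, the other core subunit, was printed many times and shows how well spots repeat. Its 10 spots on the ALDH-negative array had processed signals, before normalization, from 11687 to 12375 (SD 0.029 on the log2 scale). The 8 spots kept on the ALDH-positive array had 16843 to 18042 (SD 0.033), and 2 spots marked as outliers were left out. After normalization its log2 ratio was 0.033.

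Complex IV held the lowest and the highest log2 ratio of the nuclear subunit genes. Outside the edge of the array the highest was *Ndufa3* of complex I, at 0.21. *Ndufa4*, named for complex I, is now known as a complex IV subunit and is counted here. Of 18 nuclear genes 15 were measured, with a median log2 ratio of 0.031 and 10 above 0, beside a median of -0.20 for its 3 mitochondrial genes. *Cox5b* read 32261 and 37396 (log2 ratio 0.21, error 0.20), and both of its probes lay near the edge of the array. *Cox8a*, the widely expressed form of subunit VIII, read 125760 and 145195 (log2 ratio 0.21, error 0.20). Both lay just beyond their error, and so did a dimmer *Cox8a* probe with 0.21, while a further *Cox5b* probe, which the array files place on chromosome 15 rather than 1, gave 0.16. The main form of subunit IV, *Cox4i1*, lay on the other side, at 86814 and 80748 (log2 ratio -0.10, error 0.20).

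Several complex IV subunits have forms restricted to heart, skeletal muscle, lung or testis, and these were dim or undetected in 4T1 cells. *Cox7b2*, *Cox8b* and *Cox8c* were not well above background on either array, and neither was *Ndufa4l2*, a relative of the complex IV subunit *Ndufa4*. *Cox6a2*, the heart and muscle form of subunit VIa, read 282 and 199 (ratio 0.707, log2 ratio -0.50, error 0.21). It was the only respiratory chain gene with a ratio of 0.75 or less, and none had 1.5 or more, but with a Z-score of -1.82 it was not lower by the selection. Its widely expressed counterpart *Cox6a1* read 159281 and 178417 (log2 ratio 0.16). *Cox4i2*, the lung form of subunit IV, read 156 and 133 (log2 ratio -0.23, error 0.21). *Cox7a1*, the heart and muscle form of subunit VIIa, had 136 and 145 (log2 ratio 0.092), and *Cox6b2*, the testis form of subunit VIb, had 65.7 and 73.7 (log2 ratio 0.16, error 0.22). Of 8 striated muscle markers 2 were measured (*Myh7* and *Tnnt3*, summed signal 117 and 161), and *Ckm*, *Ckmt2*, *Acta1*, *Actc1*, *Myl1* and *Tnni3* were not well above background.

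**Figure D3:**
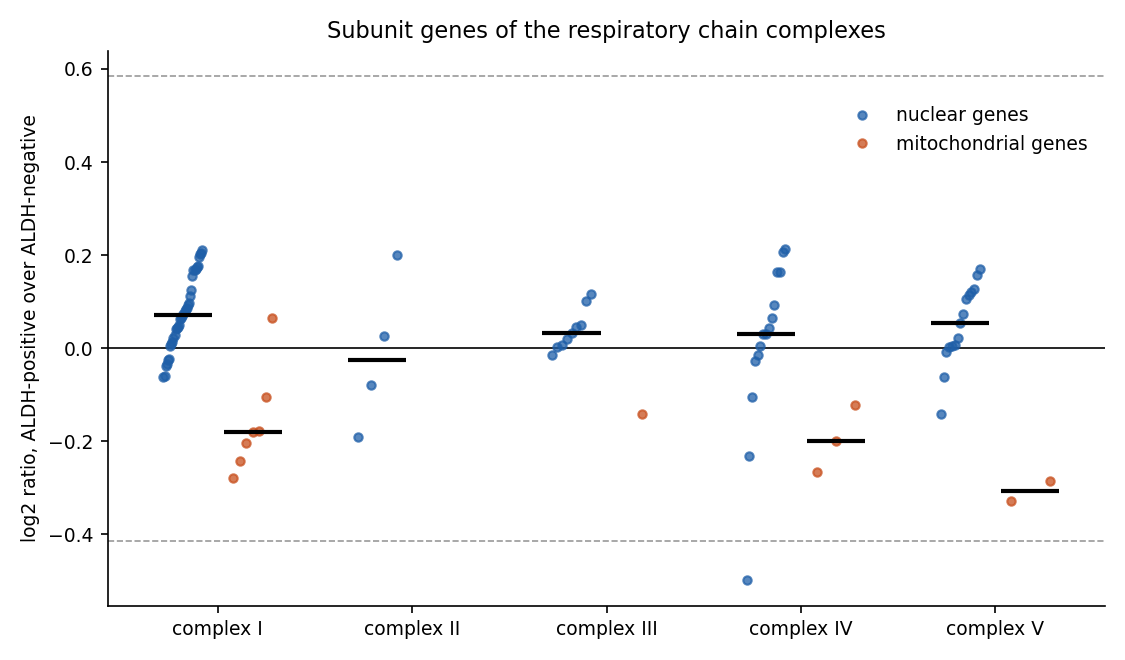
Log2 ratio of each measured subunit gene by complex, nuclear genes in blue and mitochondrial genes in orange, ordered by value within a group. Black bars are medians of groups of more than 1 gene, and dashed lines mark ratios of 0.75 and 1.5. In complexes I, IV and V the mitochondrial median (-0.18, -0.20 and -0.31) lies under the nuclear median (0.071, 0.031 and 0.054), and *CYTB* of complex III lies at -0.14.

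In complex V the genomes also lay apart, with a median log2 ratio of 0.054 over 15 nuclear genes, 12 of them above 0, and -0.31 over *ATP6* and *ATP8*. *Atp5g2* and *Atp5g3*, which encode the same ring subunit c, had signals of 76137 and 84914 (log2 ratio 0.16) and of 50914.5 and 55577 (log2 ratio 0.13), and *Atp5g1*, their further copy, 51189 and 51343 (log2 ratio 0.0043). *Atp5l*, subunit g of the membrane sector, had the highest value, with 42840 and 48197 (log2 ratio 0.17). That value came from 1 of 6 closely spaced *Atp5l* probes, and the others gave -0.074 to 0.024. *Atp5b*, the catalytic beta subunit, read 134096 and 144216 (log2 ratio 0.10). The lowest were *Atp5e*, the epsilon subunit, with 54870 and 49698 (log2 ratio -0.14), *Atp5c1*, the gamma subunit, with 55772 and 53433 (log2 ratio -0.062), and *Atp5f1*, subunit b, with 12060 and 11984 (log2 ratio -0.0091). The *Atp5e* probe lay near the edge of the array. At its brightest probe, no nuclear gene of complex V lay beyond its error, while both mitochondrial genes did. A dimmer *Atp5c1* probe, with 13062 and 11118, did lie beyond its error (log2 ratio -0.23, error 0.20).

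Cytochrome c, the mobile carrier between complexes III and IV, had signals of 25199 and 25407 at the brighter of its 2 measured *Cycs* probes, a log2 ratio of 0.012, and of 3478 and 2997 at the other, a log2 ratio of -0.21 (error 0.20). The assembly factors and other genes caught by the names had a median of 0.076 over 8 of 9 measured genes. The complex I assembly factors *Ndufaf4* and *Ndufaf2* had the lowest log2 ratios, -0.16 and -0.047, and *Ndufaf3* and *Ndufaf1* had 0.11 and 0.12. *Atp5sl* had 0.15 and *Cox7a2l*, which takes part in the joining of complexes III and IV, had 0.044. The highest was *Atp5s*, at 76.5 and 96.2 (log2 ratio 0.33, error 0.22). The *Ndufaf2*, *Ndufaf3* and *Atp5s* probes lay near the edge of the array. The current reference names *Atp5s* *Dmac2l*, *Atp5sl* *Dmac2* and *Cox4nb* *Emc8*, so these are not ATP synthase or oxidase subunits by their present names. A further 7 probes of 6 genes carry a respiratory chain name in the reference only, and the 6 measured ones lay between -0.14 and 0.21.

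Probes of the same gene show how far 1 probe can stand for a message. In the 30 genes with several measured probes, the log2 ratios of a gene spanned a median of 0.084, and 14 genes had probes on both sides of 0. The widest span was that of *Ndufv3*, 0.56. Its probes on chromosome 17 gave -0.35 at a dim probe (117 and 91.2), 0.19 (411 and 469.9) and 0.20 (18579 and 21387). Each mitochondrial gene had 1 probe, so its value has no such check.

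Genes that act on the respiratory chain from outside it were grouped in 7 related lists. The list medians lay between -0.0033 and 0.13 (log2 ratio), where the median of all measured genes was 0.045. None of the genes in these 7 lists was higher or lower, where the selection called 1.32% of measured genes higher and 2.03% lower. The assembly factors outside the name rule had a median log2 ratio of 0.029 over 38 of 39 genes, from -0.25 (*Timmdc1*, complex I) to 0.32 (*Sdhaf4*, complex II). The factors that keep and transcribe mitochondrial DNA had a median of 0.13 over 18 of 18 genes, with 10 above 0 and 7 below. The lowest of them was *Tfam*, which packages mitochondrial DNA and starts its transcription, at -0.28, and the highest was *Tk2*, a mitochondrial thymidine kinase, at 0.26. Regulators of mitochondrial biogenesis had a median of -0.0019 over 8 of 11 genes, from -0.27 (*Gabpa*, the DNA-binding part of GABP) to 0.12 (*Gabpb1*, its partner). The mitochondrial ribosomal proteins had a median of 0.019 over 76 of 76 genes, with 42 above 0, from -0.18 (*Mrpl28*) to 0.29 (*Mrpl22*). Citric acid cycle enzymes had a median of -0.0033 over 13 of 13 genes, from -0.13 (*Idh3b*) to 0.14 (*Suclg2*). Other entry points of electrons and coenzyme Q synthesis had a median of 0.058 over 18 of 19 genes. The lowest was *Prodh*, proline dehydrogenase, at -0.17, and *Sqor*, which passes electrons from sulfide to coenzyme Q, stood out at 0.60, with a ratio above 1.5 but short of the Z-score limit. Carriers and uncouplers of the inner membrane and the porins had a median of 0.12 over 10 of 11 genes, from -0.069 (*Slc25a5*) to 0.23 (*Ucp1*). None of these carrier genes lay beyond its error. *Ucp1* was dim, and its signal summed with that of *Cidea*, a further brown fat marker, was 39.0 and 48.8. The mitochondrial genes, with a median of -0.20, lay under the median of each of these lists.

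Motifs of known regulators were in some promoters of the nuclear subunit genes, in a larger share than over all promoters. The choice by name did not use these motifs. NRF1, GABP and YY1 are known regulators of respiratory chain genes. RefSeq promoters on GRCm38.p6, 250 bases before to 50 after the start of transcription, were given for 67 of the 82 genes (72 promoters), and exact matches on both strands were counted. The NRF1 motif GCATGCGC was in 10 of 72 promoters (13.9%), against 2.71% of all 32851 promoters and 3.52% of the 21263 of protein-coding genes. CCGGAAG, bound by GABP and other ETS factors, was in 16 (22.2%), against 8.86% and 11.6%. The YY1 motif AAGATGGC was in 10 (13.9%), against 2.75% and 3.05%. In all, 30 of the 67 genes held at least 1 of them. The median log2 ratio was 0.090 with and 0.054 without the NRF1 motif, 0.019 and 0.073 for the ETS motif, and 0.075 and 0.063 for the YY1 motif, and these differences were not tested. A match is a description of these windows and not a measured site.

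Stretches of the *Cycs* and *Cox6a1* promoters show these motifs, in capitals, in the carrier gene and in *Cox6a1*, which is among the subunit genes with both the NRF1 and the ETS motif. All 3 are on the minus strand of GRCm38.p6 and end before the start site. The first base of the marked motif lies 60 bases upstream in *Cycs* and 162 and 16 bases upstream in *Cox6a1*. Both marked *Cox6a1* motifs are in reverse complement, and the NRF1 stretch also holds an overlapping GCATGCGC, which is not marked.
Cycs, NRF1, chr6:50566592-50566659: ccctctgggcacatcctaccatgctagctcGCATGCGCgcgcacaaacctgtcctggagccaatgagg
Cox6a1, NRF1, chr5:115349083-115349150: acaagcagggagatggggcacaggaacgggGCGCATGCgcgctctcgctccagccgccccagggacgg
Cox6a1, ETS, chr5:115348959-115349004: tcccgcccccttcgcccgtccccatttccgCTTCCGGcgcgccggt

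**Figure D4:**
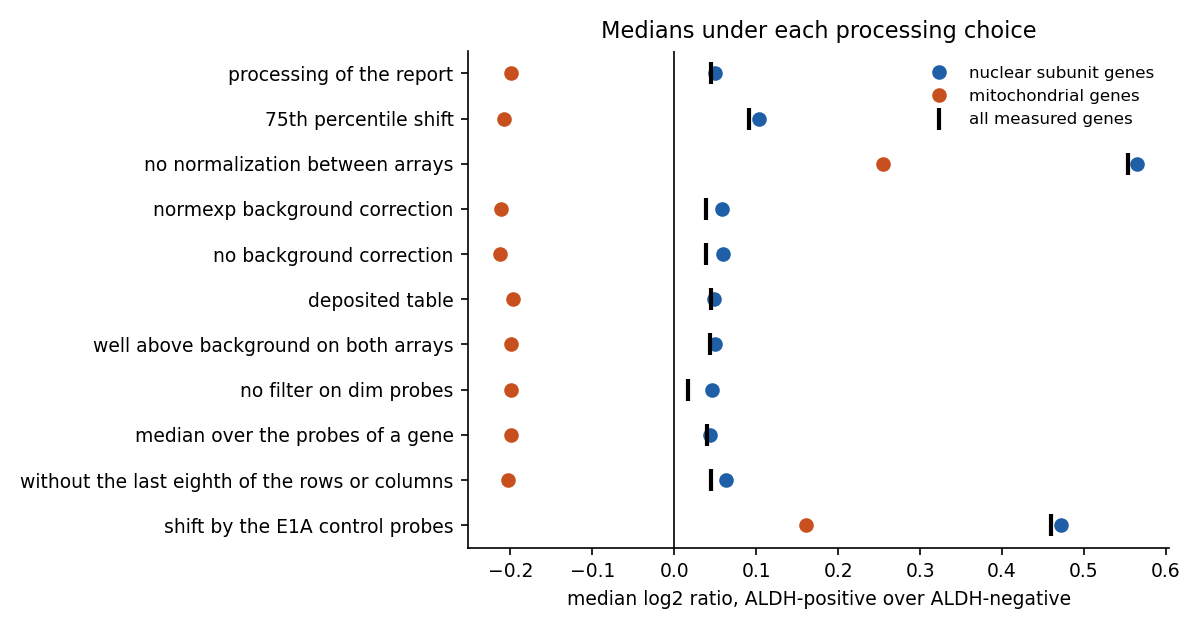
Median log2 ratio of the nuclear subunit genes (blue), the mitochondrial genes (orange) and all measured genes (black ticks) under 11 ways of processing the same 2 arrays. The mitochondrial median lies under that of all genes in each, and it lies above 0 without normalization between arrays (0.25) and with the shift by the E1A control probes (0.16).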

How the data were processed

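The authors labelled total RNA of each population with Cy3, hybridised it to Agilent SurePrint G3 mouse arrays and extracted intensities with Feature Extraction (9.5.1.1 in the submitters' processing notes, 10.7.1.1 in the file headers). The scanner files deposited by the authors give a mean signal, a background and a background-subtracted processed signal per spot in intensity units. The deposited table holds quantile-normalized intensities. For the RNA, the methods name an RNeasy kit and the labels ReliaPrep.

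From 62976 spots the 3671 control spots and spots marked as population outliers were left out. Processed signals (floor 1) were put on the log2 scale, averaged over repeated spots and quantile-normalized over both arrays. Compared with the deposited table, no log2 ratio of a chosen gene moved by more than 0.0051. The methods' text does not define the Z-score. Here it set a log2 ratio against the mean and SD of its neighbours in mean log2 signal, 250 above and 250 below, with the limits of the methods. Gene names are those of the array files. Of the 151 probes, 124 had an accession in the GRCm38.p6 gene table, and 5 had another symbol there.

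Depth has no meaning for arrays, and their number limits the precision. No test was made. The steps were tested on simulated data. The named genes are all mitochondrial genes, genes past either ratio limit, the 3 highest and 3 lowest nuclear genes of each complex and of the assembly factors, *Cycs*, genes whose probes differ in sign by over 0.3, tissue forms, and the ends of the related lists. Some genes under this rule are not reported here. *Ndufv1*, *Ndufs1*, *Uqcrc2*, *Atp5g1*, *Atp5b*, *Cox6a1* and *Cox7a2l* were named after their values were seen. The genes and lists were chosen with earlier results of these data known. Python 3.11.15, numpy 2.4.6, pandas 2.3.3, scipy 1.17.1 and limma 3.58.1 (normexp alternative, offset 50) were used.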

Additional observations from a re-analysis of the deposited data

How the results depend on the processing

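The results were recomputed under 14 other settings, of which the shift by the E1A control probes was added after seeing the data. No paired analysis was possible because each population had 1 array. In none of the settings was a respiratory chain gene higher or lower, and the nuclear minus mitochondrial median lay between 0.24 and 0.31. Every median that moved beyond the SD of a log2 ratio from repeated spots (0.076) did so without normalization between arrays, with the E1A shift, or with a 75th percentile shift. The first 2 settings keep the brighter ALDH-positive array brighter, so all genes move up together, the median of all measured genes to 0.55 and 0.46. The medians, in that order, were 0.57 and 0.47 for nuclear subunit genes and 0.25 and 0.16 for mitochondrial genes, of which 0 were then below 0, so that the sign of the mitochondrial median rests on the normalization. They were 0.58 and 0.49 for complex I (nuclear 0.60 and 0.51, mitochondrial 0.34 and 0.25), 0.50 and 0.41 for complex II, 0.55 and 0.46 for complex III and for its nuclear genes, 0.52 and 0.43 for complex IV (nuclear 0.54 and 0.45, mitochondrial 0.17 and 0.080), and 0.54 and 0.45 for complex V (nuclear 0.55 and 0.46, mitochondrial 0.20 and 0.10). For assembly factors and other genes of the name rule they were 0.60 and 0.50. For the related lists they were 0.57 and 0.47 (assembly factors), 0.60 and 0.50 (mitochondrial DNA), 0.55 and 0.45 (biogenesis), 0.56 and 0.46 (ribosomal proteins), 0.54 and 0.45 (citric acid cycle), 0.59 and 0.49 (electron entry) and 0.59 and 0.50 (carriers). With the 75th percentile shift, the complex IV mitochondrial median was -0.29, and the medians of assembly factors, biogenesis regulators and citric acid cycle enzymes were 0.11, 0.083 and 0.080. Single genes moved under other settings too. Without the edge of the array *Cycs* was at -0.21 and *Ndufb2* at 0.11, with the median over probes *Atp5l* was at -0.020 and *Cycs* at -0.10, and with normexp *Cox6a2* was at -0.35. The complex II median was below 0 in 8 of 11 settings. Of 101 measured respiratory chain genes, 70 (69.3%) lay above 0 in the processing of the report, where 60.6% of all measured genes did. That count was 64 with normexp, and 65 without background correction and with the median over probes. It was 81 with the 75th percentile shift, and 100 without normalization and with the E1A shift.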
